A study of Homo sapiens with 9 samples.

Results

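Caffeic acid, a phenolic acid of coffee, was compared with no treatment in HT29, an epithelial cell line of human colon cancer. The comparison rested on 6 of the 9 arrays of the study, namely 3 arrays of cells that received caffeic acid at 1.68 µg/mL for 24 h (CA) and 3 of cells left untreated (Control). The groups were taken from the sample titles. The remaining 3 arrays, of cells given 7 µg/mL of instant caffeinated coffee (ICC) for 24 h, entered the same model and are given where they stand beside a gene of this comparison. Both doses are labelled as not cytotoxic. Control and CA cells were the same line, and the labels name no vehicle for the untreated cells. The labels do not say whether the replicates were separate cultures, so every p-value measures the spread between these arrays, which may be technical. With 3 arrays in each group the precision of each value is limited.

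Caffeic acid is a hydroxycinnamic acid whose catechol ring can be oxidised to a quinone, methylated, sulfated or glucuronidated. It is known as an antioxidant and as an inhibitor of lipoxygenase in cell-free assays. HT29 cells carry a mutated APC gene, which keeps Wnt signalling active, and they are known to hold cells that can make mucus and cells that can absorb. The lists described here therefore cover the handling of phenolic acids, redox and metal responses, secretion and the endoplasmic reticulum, epithelial identity, and the cell cycle.

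RNA was hybridised to Affymetrix HG-U133 Plus 2.0 arrays, on which a gene is read by 1 or more probe sets. The deposited values are linear intensities, and levels are given here as their log2. A difference is CA minus Control on that scale, with the SE of the limma model. The 62 Affymetrix control probe sets were left out, which left 54613 probe sets and, with each gene read by its brightest probe set, 19775 genes. Across genes the 6 arrays correlated between 0.9945 and 0.9978, and their median intensities lay between 43.79 and 45.48. Of the 10 markers of colon epithelium all were measured and 8 lay at or above the median level of the genes. Their summed intensity ran from 51070 to 54240 in Control and from 49710 to 52870 in CA. CDX2, a transcription factor that defines intestinal epithelium, was dim at 5.94 log2. Markers of other cells summed to 249.5 to 266.7 in Control and 258.4 to 285.9 in CA for 6 fibroblast genes, and to 112.7 to 121.9 and 113.7 to 122.3 for 4 endothelial genes. The 6 measured leukocyte markers of 8 summed to 8516 to 9825 and 7343 to 9383, a sum made almost wholly by lysozyme, LYZ, at 13.05 log2, an enzyme that intestinal epithelium makes as well.

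Most genes lay within a narrow band around their untreated level. The median difference over all genes was 0.0027 log2, and 2 genes stood more than 0.5 log2 above Control while 19 stood more than 0.5 below. One of them, HINT3, passed a difference of 1 log2, and 0 genes did so downwards. Without the replicate number as a block limma called 0 of 19775 genes (0%) at an adjusted p under 0.05, where 883 (4.47%) had an unadjusted p under 0.05, 505 above Control (2.55%) and 378 below (1.91%). With the number as a block it called 3 (0.0152%), all below Control, where 1688 (8.54%) had an unadjusted p under 0.05, 798 above (4.04%) and 890 below (4.5%). When the arrays were quantile normalized again the block called 0 genes, and 1057 lay above and 783 below, which turned the balance of the directions. Over probe sets taken singly limma called 0 of 54613 (0%) with or without the block, where 4487 (8.22%) and 2554 (4.68%) had an unadjusted p under 0.05.

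**Figure D1:**
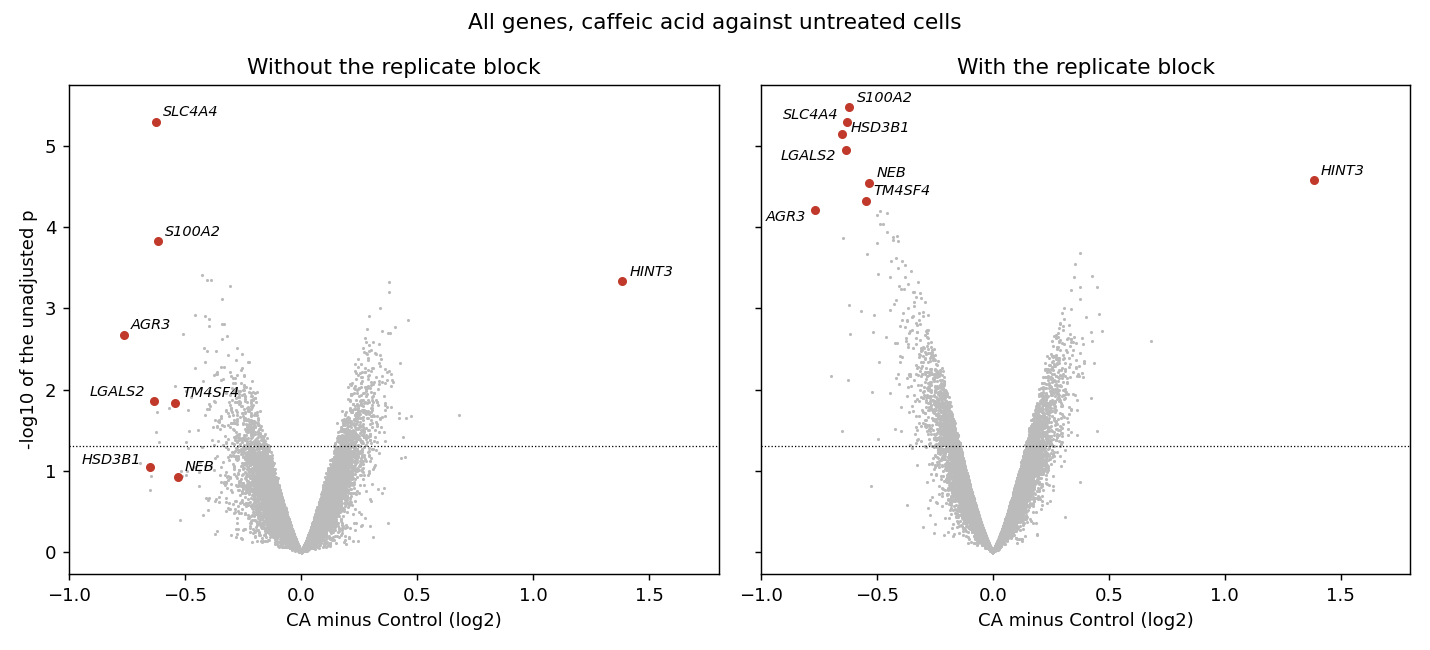
Each point is 1 of 19775 genes, with CA minus Control in log2 on the horizontal axis and the negative log10 of limma's unadjusted p on the vertical axis, without the replicate block on the left and with it on the right. The dotted line marks an unadjusted p of 0.05. HINT3 stands alone on the right at +1.38, and HSD3B1, LGALS2, NEB and TM4SF4 move up when the block is used.

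The direction of the differences varied with the level of the gene. Genes were split into 4 equal groups by level. In the dimmest group 55.6% lay above Control, and 144 genes had an unadjusted p under 0.05 above it against 78 below. In the group just above the median level 44.1% lay above Control, with 96 genes above and 134 below, and with the block 164 and 349. In the brightest group 49.6% lay above, with 68 and 61 genes. Named genes are therefore described with their levels, and those below the median gene level of 6.46 log2 are called dim.

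The 3 genes that passed with the replicate block were all lower after caffeic acid. S100A2, a calcium-binding protein of epithelia, measured 9.60, 9.44 and 9.67 log2 in Control replicates 1, 2 and 3, and 9.06, 8.77 and 9.03 in CA. All CA arrays lay below all controls, and the 3 same-numbered pairs differed by -0.54, -0.67 and -0.63. The difference was -0.62 ± 0.068 with the block (adjusted p 0.0472, limma) and had an adjusted p of 0.996 without it. The coffee arrays read 9.75, 9.45 and 9.62, at the level of the controls.

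SLC4A4, which carries sodium and bicarbonate across the membrane of epithelial cells, measured 6.62, 6.66 and 6.75 in Control and 6.16, 5.95 and 6.05 in CA. The groups did not overlap, and its controls were close together, so the block changed its own test little. Its unadjusted limma p was 5.0e-06 without the block and 5.1e-06 with it. The difference was -0.63 ± 0.073, with a limma adjusted p of 0.0993 without the block and 0.0472 with it. ICC lay between the groups at 6.33, 6.31 and 6.33. Of its 5 probe sets 3 lay below Control and 2 above, between -0.63 and +0.08, and the probe set used was the brightest, at a dim 6.35.

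HSD3B1, a dim gene for an enzyme of steroid hormone synthesis, showed what the block does. It measured 6.94, 6.60 and 6.01 in Control and 6.48, 5.90 and 5.22 in CA, so that the groups overlapped. Within each number CA was lower, with pairs at -0.46, -0.71 and -0.79 for replicates 1, 2 and 3, and the ICC arrays followed the same order over the numbers at 6.67, 6.33 and 5.59. The SE of its difference of -0.65 was 0.35 without the block (adjusted p 0.996) and 0.078 with it (adjusted p 0.0472, limma). The second probe set of the gene stood at +0.08. The calls of all 3 genes were borderline. Their shared adjusted p of 0.0472 is 1 Benjamini-Hochberg value, set by the largest unadjusted limma p of the 3, 7.2e-06 for HSD3B1. In this model S100A2 and SLC4A4 therefore passed only together with HSD3B1. SLC4A4 and HSD3B1 are dim, so they were not in the model without dim genes, where the block called S100A2 alone (limma, adjusted p 0.0282). In blocked models that lacked 1 array none of them passed, with lowest limma adjusted p of 0.0908 for S100A2 and SLC4A4 and 0.0919 for HSD3B1, and with probe sets tested singly each had an adjusted p of 0.109.

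The next genes with the block were LGALS2, NEB and HINT3. LGALS2, a galectin that binds galactosides on the cell surface, measured 7.11, 7.43 and 6.91 in Control, 6.66, 6.82 and 6.07 in CA and 7.06, 7.35 and 6.69 in ICC. CA lay below Control in every pair, by -0.63 ± 0.080 with the block (adjusted p 0.0550, limma), and each ICC array lay between the CA and Control arrays of its number. NEB, the giant actin-binding protein nebulin, was dim and measured 6.53, 6.82 and 5.83 in Control and 5.84, 6.32 and 5.43 in CA, so that the groups overlapped. CA was lower within each number, and the SE of its difference of -0.53 was 0.31 without the block and 0.074 with it (adjusted p 0.0936, limma). With each array centred on its median, the block called 5 genes, S100A2, SLC4A4, HSD3B1, LGALS2 and HINT3.

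**Figure D2:**
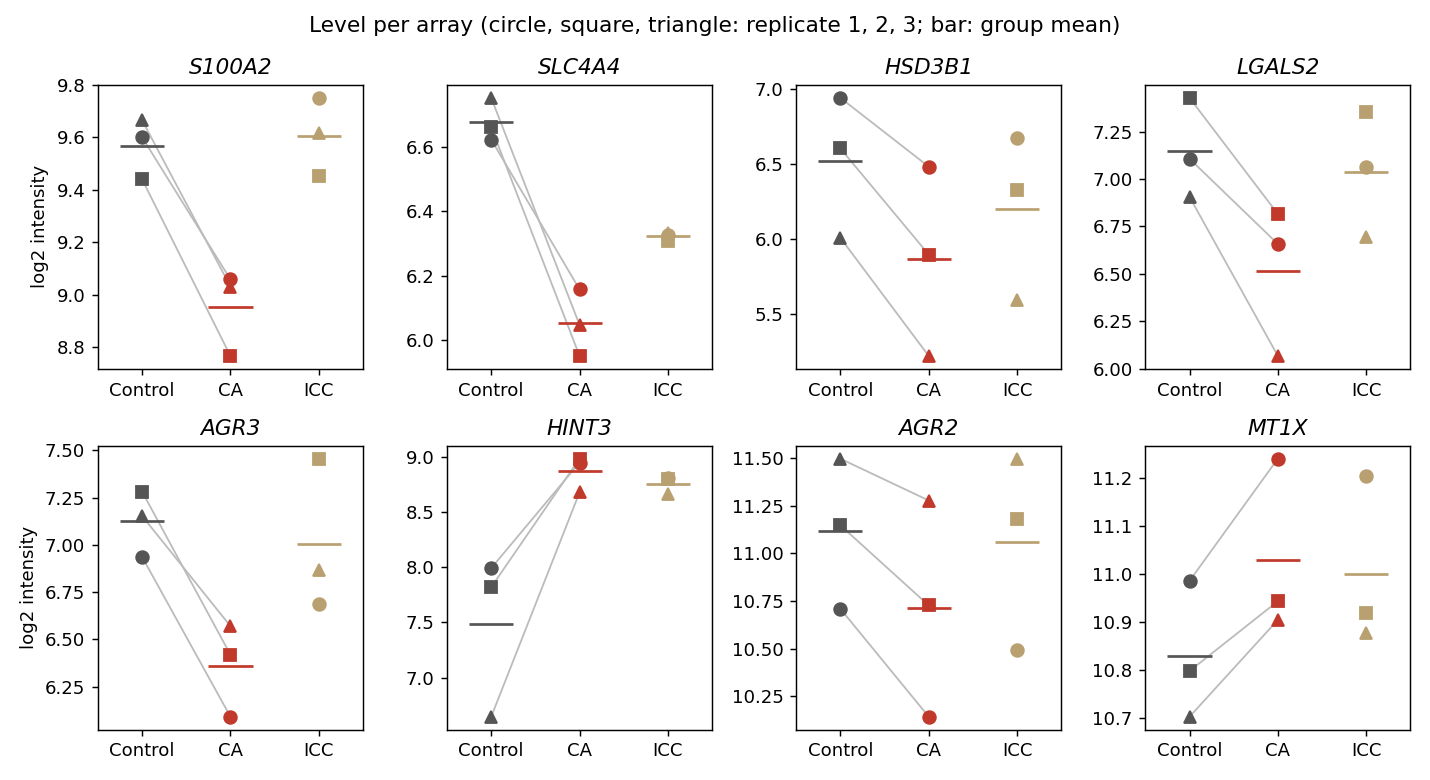
Log2 intensity of 8 genes on each array, with circle, square and triangle for replicates 1, 2 and 3, a bar for the group mean and lines that join Control and CA arrays of the same number. In HSD3B1 and AGR2 the numbers lie in the same order in every group, and in S100A2 the 3 CA arrays, from 8.77 to 9.06, lie below all other arrays.

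HINT3, a nucleotide hydrolase of the histidine triad family, gave the largest difference of any gene. It measured 7.99, 7.82 and 6.65 in Control and 8.95, 8.98 and 8.68 in CA, and the ICC arrays read close to CA at 8.81, 8.80 and 8.66. The treated arrays were tight and the controls were not, since Control replicate 3 lay more than 1 log2 under the other controls. The difference was +1.38 ± 0.28 (2.61-fold, adjusted p 0.996) and with the block ± 0.19 (adjusted p 0.0936). Without Control replicate 3 it was +0.96 (limma, adjusted p 0.161). With the block and without that array it was +1.03, and HINT3 then was the 1 gene that passed (limma, adjusted p 0.0189). The remaining 6 members of the histidine triad list lay between -0.05 and +0.05.

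All 3 probe sets of HINT3 read in the same direction. The second, 226537_at, measured 6.34, 6.39 and 5.34 in Control and 7.19, 7.00 and 6.73 in CA, with the low value again on Control replicate 3. The third, 226533_at, measured 5.21, 5.24 and 4.997 and then 5.99, 6.51 and 5.71, and its controls were close together. The differences were +0.95 and +0.92, and the groups did not overlap on any of the 3. Over all probe sets that was so in 7.85%, but HINT3 was named partly for groups that did not overlap. Its 3 probe sets read the same gene on the same arrays, so they are not independent.

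Among all probe sets, one of SIAE came next to HINT3 above Control. SIAE removes acetyl groups from sialic acids. Its probe set 223744_s_at measured 6.01, 6.15 and 5.25 in Control, 7.14, 7.07 and 7.03 in CA, and 7.05, 7.08 and 5.96 in ICC. CA stood +1.28 ± 0.29 above Control, with limma adjusted p of 0.986 without the block and 0.121 with it. The brighter probe set of the same gene did not follow, at 7.52, 7.51 and 7.54 in Control and 7.23, 7.43 and 7.42 in CA (-0.17), nor did the other 2, at -0.15 and -0.05. PACRGL was alike, with 235517_at at 5.20, 5.31 and 5.18 in Control and 5.72, 5.82 and 5.59 in CA (+0.48), a second probe set at +0.36, and the remaining 2, which include the brightest, at -0.07 and -0.04. The unnamed probe set 235008_at measured 6.23, 6.25 and 7.12 in Control, 5.57, 5.67 and 6.10 in CA and 5.12, 5.34 and 5.87 in ICC, a difference of -0.75 (adjusted p 0.109 with the block).

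**Figure D3:**
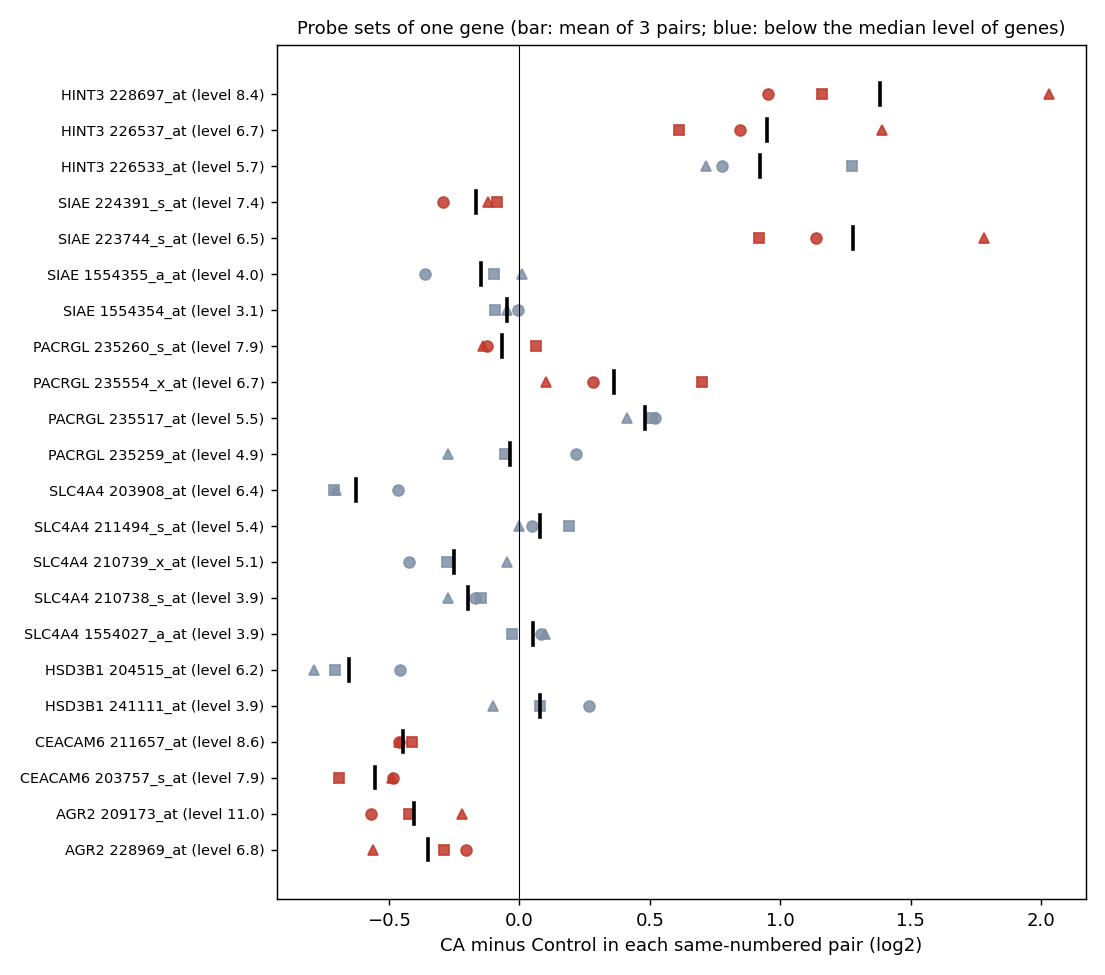
CA minus Control in log2 for each probe set of 7 genes, with a circle, square and triangle for the pairs of replicates 1, 2 and 3 and a bar for their mean; blue marks probe sets below the median gene level and the level stands in brackets. The 3 probe sets of HINT3 lie at +0.92 to +1.38, whereas 1 of the 4 of SIAE lies at +1.28 and the others lie between -0.17 and -0.05.

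Among genes at or above the median level whose groups did not overlap and whose 3 pairs had 1 direction, the 12 highest were HINT3, then EPOR, the erythropoietin receptor, and 10 others. EPOR measured 7.46, 7.65 and 7.41 in Control and 7.76, 8.02 and 7.94 in CA (+0.40 ± 0.096, adjusted p 0.996). Of its 5 probe sets 3 lay above Control and 2 below, between -0.10 and +0.40, and the probe set used, 396_f_at, gave the highest value. TAF13, a subunit of the general transcription factor TFIID, stood at +0.39 and LYPLA1, which removes palmitate from proteins, at +0.39. The kinetochore protein CENPK stood at +0.37, the antiviral factor TRIM5 at +0.36, the RNA decay factor SKIC3 at +0.33 and the spindle checkpoint protein MAD2L1 at +0.33. COMMD8, the chromatin reader SPIN4, the matrix protein EMILIN3 and AGPS, an enzyme of ether lipid synthesis, lay between +0.30 and +0.32. In several of these genes 1 control array carried much of the difference. MAD2L1 measured 10.85, 11.31 and 11.19 in Control and 11.56, 11.44 and 11.33 in CA, with pairs at +0.70, +0.13 and +0.14, and TAF13, LYPLA1, CENPK, COMMD8 and AGPS had their largest pair at number 1 too. SPIN4 was even, with pairs at +0.36, +0.28 and +0.28 (8.97, 8.90 and 8.98 against 9.33, 9.19 and 9.26, block p 9.8e-04). The other probe sets of MAD2L1, SKIC3, TAF13, LYPLA1, TRIM5 and AGPS lay below 0, between -0.17 and -0.01. Against the same controls ICC stood at +0.46 for EPOR, +0.40 for TAF13 and CENPK and +0.38 for LYPLA1. For EMILIN3 it stood at +0.33, for SKIC3 and MAD2L1 at +0.32 and for AGPS at +0.26. It was +0.25 for COMMD8, +0.18 for SPIN4 and +0.16 for TRIM5.

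The 12 lowest by the same rule were led by AGR3, LGALS2, ADM, CTSZ and S100A2. AGR3, a disulfide isomerase of secretory cells, measured 6.94, 7.28 and 7.15 in Control and 6.09, 6.42 and 6.57 in CA (-0.76 ± 0.19, with the block adjusted p 0.126, limma). ADM, the peptide hormone adrenomedullin, measured 8.91, 9.89 and 8.73 and then 8.67, 8.47 and 8.52, so its difference of -0.62 came mostly from Control replicate 2. Without that array it was -0.27. The lysosomal protease CTSZ stood at -0.62, with pairs at -0.60, -0.29 and -0.97, and its second probe set at +0.07.

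TM4SF4, a membrane glycoprotein, measured 11.95, 12.20 and 12.26 in Control and 11.21, 11.70 and 11.86 in CA (-0.54 ± 0.081 with the block, adjusted p 0.126, limma). The adrenergic receptor ADRA2A measured 7.17, 7.27 and 7.49 and then 6.85, 6.40 and 7.06 (-0.54), while ICC read 7.46, 7.23 and 7.72. The amino acid transporter SLC38A5 measured 8.20, 8.09 and 8.22 and then 7.75, 7.52 and 7.86 (-0.46). The adhesion molecule CEACAM1 measured 10.76, 10.34 and 10.53 and then 10.21, 9.995 and 10.20 (-0.41), with all 5 of its probe sets below Control. ERGIC1, of the compartment between the endoplasmic reticulum and the Golgi, stood at -0.57, TINAG at -0.47 and the ubiquitin ligase MARCHF3 at -0.40. All probe sets of ERGIC1, TINAG and MARCHF3 lay below Control.

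**Figure D4:**
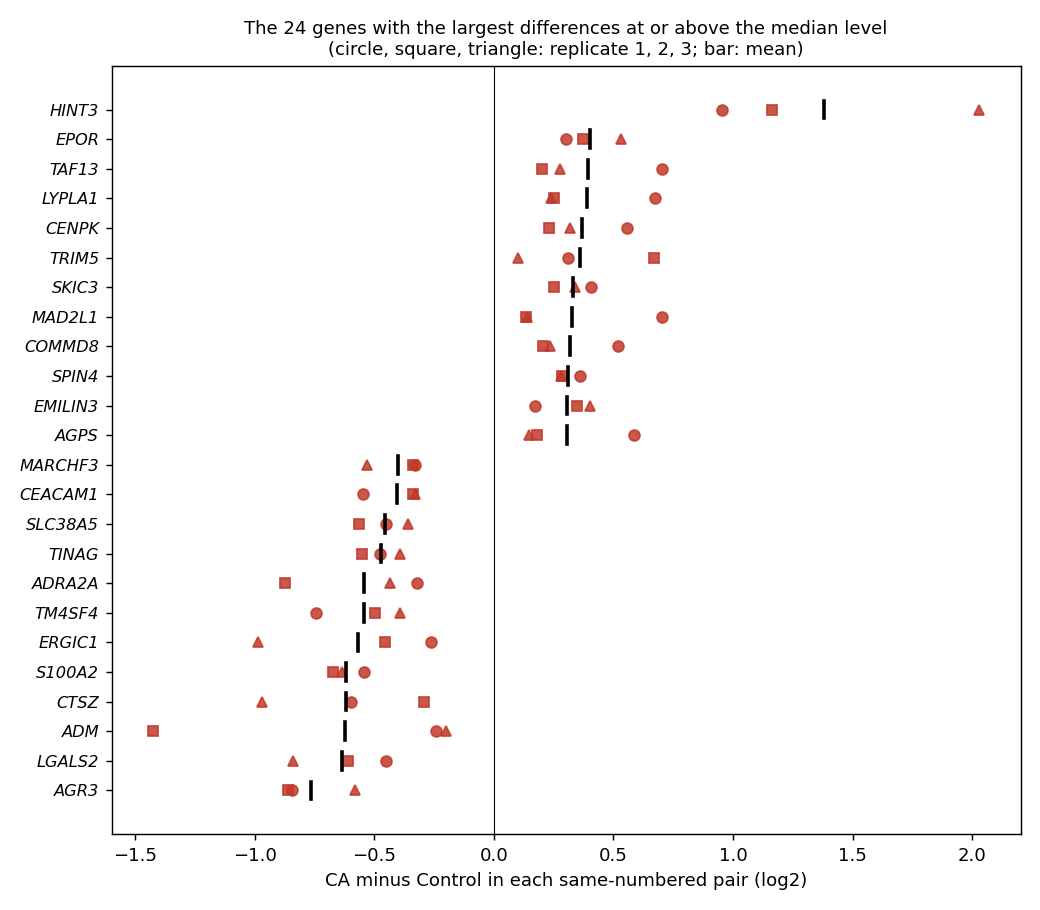
CA minus Control in log2 in each same-numbered pair for the 12 highest and 12 lowest genes at or above the median level, with circle, square and triangle for replicates 1, 2 and 3 and a bar for the mean. HINT3 and ADM have 1 pair far from the others, at +2.03 and -1.43, and SPIN4, SLC38A5 and S100A2 have pairs close together.

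With the block the smallest unadjusted p values above Control after HINT3 belonged to LPP, GP6, RFXAP, DGKK and SPIN4. LPP, a LIM protein of cell contacts, measured 8.79, 8.41 and 8.45 in Control and 9.16, 8.71 and 8.85 in CA (+0.36 ± 0.066, adjusted p 0.212, limma), while 5 of its 8 probe sets lay below 0. RFXAP, a factor of MHC class II promoters, stood at +0.45 with overlapping groups, and both of its probe sets lay above 0. GP6 and DGKK, at +0.35 and +0.37, were dim, with all arrays below 5 log2.

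Gene lists are described by their members' direction and by the number with an unadjusted p under 0.05 with the block, which over all genes is 4.04% above and 4.5% below Control. No list member other than S100A2, SLC4A4 and HSD3B1 passed over all genes. In bulk RNA, fewer cells of a type and less RNA per cell cannot be told apart.

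Genes of secretion through the endoplasmic reticulum lay mostly below Control. Of 31 measured members of 32 in the list of chaperones and the unfolded protein response, which restores folding capacity when proteins misfold in this compartment, 23 lay below 0 against 48.6% of all genes. The median was -0.10 log2, 6 members had a block p under 0.05 below Control and 0 above, and 14 were lower in all 3 pairs, against 13.9% of all genes. The groups overlapped in every member, where 7.86% of all genes had groups apart. Without the block 2 members had an unadjusted limma p under 0.05, against 4.47% of all genes. The pair medians were -0.21, -0.04 and -0.03 for numbers 1, 2 and 3, so the shift was largest in the first pair. Without single arrays the median ran from -0.14 to -0.04.

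The members differed in size of difference. DNAJB9, a cochaperone induced by misfolded proteins, measured 9.00, 9.22 and 8.69 in Control and 8.57, 8.74 and 8.48 in CA (-0.37 ± 0.085 with the block), and all 3 of its probe sets lay below Control. SDF2L1 measured 8.73, 8.44 and 8.77 and then 8.52, 8.02 and 8.52 (-0.29). HSP90B1, the chaperone GRP94, measured 11.20, 10.91 and 11.23 and then 10.92, 10.87 and 10.97 (-0.19), DNAJB11 stood at -0.19, the isomerase PDIA6 at -0.16 with all 4 probe sets below 0, and the dim oxidase ERO1B at -0.22. HSPA5, the chaperone BiP and the best-known member, went against them at 12.42, 12.53 and 12.65 in Control and 12.56, 12.65 and 12.61 in CA (+0.07 ± 0.087). Its second probe set stood at -0.12, so the direction of HSPA5 depended on the probe set.

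Promoters of such genes are known for the endoplasmic reticulum stress element, spelled CCAAT, then 9 bases of any kind, then CCACG, which was searched on both strands of the 250 bases before the start of each gene in RefSeq (GRCh38.p14). It was found in 16 of 15384 promoters with a measured gene (0.104%) and in 8 of 28 promoters of this list (28.6%). Of those 8 genes 5 lay below and 3 above Control, with a median of -0.09, and the median of the other 20 was -0.12. Of all 16 genes with the element 7 lay below and 9 above, with a median of +0.006. The promoters of HSPA5 (chr9:125241344-125241593, minus strand) and HSP90B1 (chr12:103930160-103930409, plus strand) are shown because both hold the element, in capitals, while the genes lay on opposite sides of 0.
HSPA5: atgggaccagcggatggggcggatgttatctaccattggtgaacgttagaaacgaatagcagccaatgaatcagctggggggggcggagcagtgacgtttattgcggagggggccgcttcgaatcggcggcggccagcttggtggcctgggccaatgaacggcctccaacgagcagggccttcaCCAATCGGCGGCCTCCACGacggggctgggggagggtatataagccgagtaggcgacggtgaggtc
HSP90B1: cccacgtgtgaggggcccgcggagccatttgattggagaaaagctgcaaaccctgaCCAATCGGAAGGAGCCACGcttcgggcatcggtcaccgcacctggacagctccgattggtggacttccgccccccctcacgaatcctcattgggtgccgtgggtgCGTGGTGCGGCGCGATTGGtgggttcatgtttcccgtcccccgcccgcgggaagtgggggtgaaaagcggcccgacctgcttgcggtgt

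The machinery that moves new proteins into the endoplasmic reticulum and adds sugars to them showed the same direction. Of 25 measured members of 26, 20 lay below 0, with a median of -0.07 that ran from -0.13 to -0.04 without single arrays, 5 members had a block p under 0.05 below and 0 above. Without the block 1 member had an unadjusted limma p under 0.05, against 4.47% of all genes. DAD1, a subunit of the oligosaccharyl transferase, measured 11.44, 11.41 and 11.44 in Control and 11.16, 11.12 and 11.38 in CA (-0.21). STT3A, its catalytic subunit, measured 10.63, 10.60 and 10.72 and then 10.26, 10.27 and 10.75 (-0.23), so that CA replicate 3 stood with the controls. SSR3 and SSR2 of the translocon-associated complex stood at -0.17 and -0.18, and all 4 probe sets of SSR3 lay below 0, down to -0.37. ICC stood near CA for these genes, with -0.24 for DAD1, -0.33 for STT3A and -0.14 for SSR3 against the same controls.

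**Figure D5:**
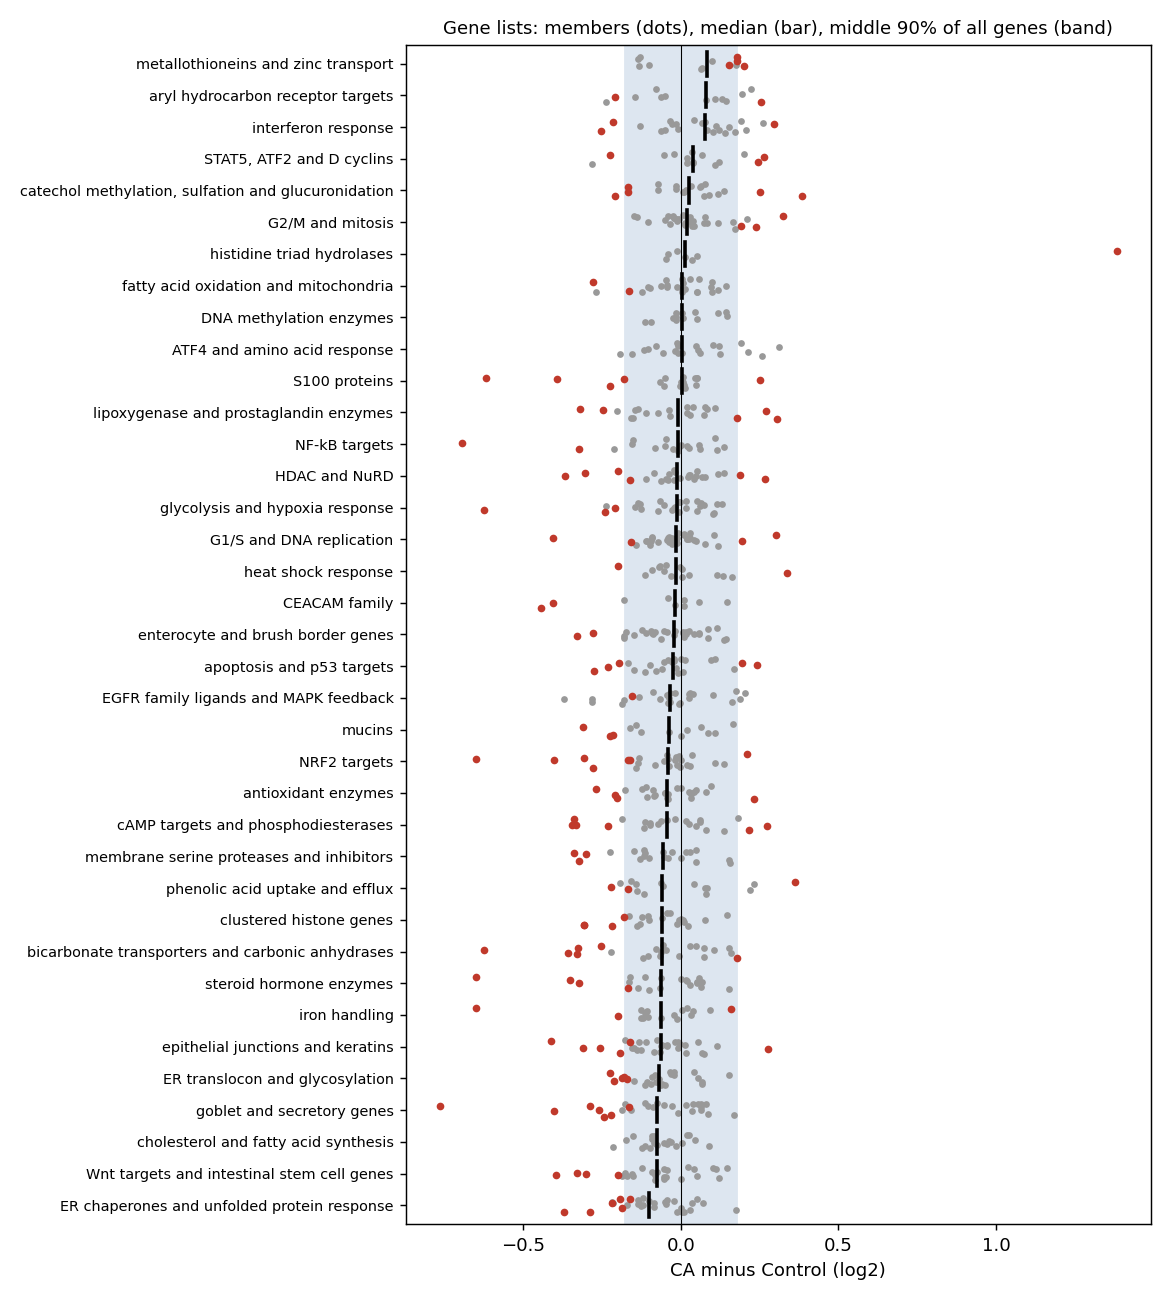
CA minus Control in log2 for the members of 37 gene lists (dots, red where the block p was under 0.05), the median of each list (black bar) and the middle 90% of all genes (band), ordered by median. The chaperone list is lowest with a median of -0.10 and the metallothionein list is highest at +0.08, and most members of every list lie inside the band.

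Genes of goblet cells, which secrete mucus, included several of the lower genes. Of 27 members 17 lay below 0, 7 had a block p under 0.05 below Control and 0 above, and 8 were lower in all 3 pairs. The median was -0.07, yet leaving out Control replicate 3 made it +0.027 and leaving out CA replicate 1 made it +0.0067. AGR2, an isomerase that helps to fold mucins, measured 10.71, 11.15 and 11.50 in Control, 10.14, 10.73 and 11.28 in CA and 10.50, 11.18 and 11.50 in ICC. The numbers spread more than the treatment did, but CA was lowest in every number (-0.40 ± 0.081 with the block, adjusted p 0.278, limma), and both probe sets lay below 0.

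REG4, a lectin of secretory cells, was dim and stood at -0.29 on the brightest of its 3 probe sets, which ran up to +0.055, and SPINK1, a trypsin inhibitor, measured 11.59, 11.21 and 11.47 and then 11.14, 11.10 and 11.30 (-0.24), and the trefoil peptides TFF2 and TFF3, the latter dim, stood at -0.16 each. Against the same controls ICC stood at -0.12 for AGR3, -0.06 for AGR2, -0.04 for REG4, -0.14 for SPINK1, -0.09 for TFF2 and +0.10 for TFF3. The difference between CA and ICC did not pass for any of these 6 genes, with a lowest adjusted p of 0.487 (limma, with the block). Of 13 mucins 7 lay below 0 and 3 had a block p under 0.05, all below. MUC13 measured 9.47, 9.29 and 9.28 in Control and 9.17, 9.09 and 9.14 in CA (-0.21), with both probe sets below 0. The gel-forming mucin MUC5AC read -0.31 on its brightest probe set, with pairs at -0.55, -0.01 and -0.38, whereas its 4 probe sets ran from -0.31 to +0.33 and were split evenly by direction.

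Adhesion and absorption genes gave single members below Control. Of 30 measured junction and keratin genes 23 lay below 0, with a median of -0.06, 5 with a block p under 0.05 below and 1 above. CLDN2, a claudin that makes tight junctions leaky to cations, measured 9.85, 9.77 and 10.14 and then 9.66, 9.30 and 9.88 (-0.31). PKP2, a desmosome protein, was the member above, at 7.65, 8.02 and 7.78 and then 7.99, 8.26 and 8.03 (+0.28), with its second probe set at -0.10. CEACAM6, beside CEACAM1 the other member of its family of 9 with a block p under 0.05, measured 8.67, 8.48 and 9.11 and then 8.21, 8.07 and 8.65 (-0.44 ± 0.086 with the block, adjusted p 0.242, limma). Its pairs were nearly equal at -0.46, -0.41 and -0.46, and its second probe set stood at -0.55. The glucose transporter SLC5A1 stood at -0.28 with both probe sets below 0.

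Ion transport for bicarbonate secretion showed 5 members with a block p under 0.05 below Control and 1 above among 22. Beside SLC4A4 these included CFTR, the chloride and bicarbonate channel, at 9.72, 9.72 and 9.93 in Control and 9.13, 9.50 and 9.67 in CA (-0.36 ± 0.086 with the block), with all 6 of its probe sets below 0. CA2, carbonic anhydrase 2, measured 6.69, 6.85 and 6.34 and then 6.46, 6.34 and 6.08 (-0.33). The sodium and hydrogen exchanger SLC9A2 stood above, at a dim +0.18, with its second probe set at -0.11.

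The S100 genes did not share a direction. Of 19 members 11 lay above 0 and 8 below, and the median was 0.0026. S100A4 measured 11.84, 12.27 and 12.21 in Control, 11.55, 11.66 and 11.95 in CA and 12.01, 12.31 and 12.15 in ICC (-0.39 ± 0.090 with the block, adjusted p 0.375, limma). CA was lowest in each number. The dim S100A3 stood at -0.22, S100A14 at -0.18 and the dim S100A1 at +0.25, while the abundant S100A6 read 13.36, 13.40 and 13.38 against 13.34, 13.30 and 13.36. Among 21 enzymes of steroid hormones, HSD17B2, which inactivates oestradiol and testosterone, measured 9.53, 9.65 and 9.67 and then 8.86, 9.49 and 9.45 (-0.35), HSD11B2, a dim gene whose enzyme inactivates cortisol, 6.42, 6.42 and 6.45 and then 6.11, 5.92 and 6.29 (-0.32), and HSD17B8 stood at -0.17. With HSD3B1 these were the 4 members with a block p under 0.05, all below Control.

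Wnt targets and intestinal stem cell genes had a median of -0.08 that ran from -0.13 to -0.01 without single arrays, with 19 of 27 below 0, 4 with a block p under 0.05 below and 0 above. PROX1, a transcription factor of Wnt-driven colon tumours, measured 9.14, 8.89 and 8.60 in Control and 8.90, 8.60 and 8.23 in CA (-0.30 ± 0.067 with the block), and its 4 probe sets lay below 0. MMP7, a protease, measured 12.49, 11.74 and 12.23 and then 12.07, 11.41 and 11.9995 (-0.33). Both genes had numbers that spread beyond the treatment, with CA lower in each. LGR5, the receptor that marks intestinal stem cells, did not hold 1 direction, at 7.03, 6.96 and 7.52 and then 7.18, 5.99 and 7.15. Its difference of -0.40 was -0.0043 without CA replicate 2. TNFRSF19 stood at a dim -0.20.

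Metallothioneins, which buffer zinc and copper in the cell, stood above Control. Of 12 members of the list with zinc transporters 8 lay above 0 (51.4% of all genes did), with a median of +0.08, 4 had a block p under 0.05 above Control and 0 below, and 7 were higher in all 3 pairs, against 13.8% of all genes. MT1X measured 10.99, 10.80 and 10.70 in Control and 11.24, 10.94 and 10.90 in CA (+0.20 ± 0.063 with the block, adjusted p 0.460, limma). MT2A measured 11.56, 11.19 and 11.14 and then 11.74, 11.43 and 11.26 (+0.18), MT1F stood at +0.18 and MT1H at +0.15. The groups overlapped in each, because replicate 1 was highest in both. ICC stood at +0.17, +0.17, +0.15 and +0.15 for the 4 genes. Metallothionein genes are near copies of each other and share probes, so their values are not independent. Without probe sets that can match several transcripts only 6 members of the list remained, 4 below 0 and 2 above, with a median of -0.07. MT1X, MT2A, MT1F and MT1H were not among them, so this median does not describe those genes. SLC30A1, a zinc exporter known to respond to zinc with them, stood at -0.13.

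The metal response element, whose core was searched on both strands as TGCACNC or TGCGCNC, was found in 29.7% of all 15384 promoters and in 5 of the 7 promoters of this list that RefSeq (GRCh38.p14) gave (71.4%). It is short and frequent, and matches may overlap with other motifs. The promoters of MT1X (chr16:56682220-56682469, plus strand) and MT2A (chr16:56608334-56608583, plus strand), shown because both genes were higher in all 3 pairs, hold 4 and 7 matches, in capitals.
MT1X: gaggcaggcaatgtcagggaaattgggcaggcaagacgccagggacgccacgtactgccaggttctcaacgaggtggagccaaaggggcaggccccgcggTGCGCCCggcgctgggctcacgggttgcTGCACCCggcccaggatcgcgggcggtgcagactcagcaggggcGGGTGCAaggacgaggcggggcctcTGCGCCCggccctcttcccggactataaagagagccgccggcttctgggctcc
MT2A: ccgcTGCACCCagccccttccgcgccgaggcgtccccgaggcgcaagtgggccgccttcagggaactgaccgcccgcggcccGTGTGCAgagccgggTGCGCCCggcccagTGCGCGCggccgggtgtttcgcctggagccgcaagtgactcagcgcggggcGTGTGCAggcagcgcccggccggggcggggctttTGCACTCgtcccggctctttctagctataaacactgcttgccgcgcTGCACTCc

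Targets of NRF2, the factor that electrophiles and oxidants activate, did not stand above Control as a list. Of 26 members 19 lay below 0, 6 had a block p under 0.05 below and 1 above, and the median of -0.04 was +0.03 without Control replicate 2. HMOX1, haem oxygenase 1, was dim and measured 5.88, 7.69 and 5.92 in Control and 5.59, 5.92 and 6.03 in CA, so that its -0.65 came from Control replicate 2, without which it was -0.05. NQO1, a quinone reductase, measured 11.82, 12.30 and 12.11 and then 12.01, 12.27 and 12.26 (+0.11 ± 0.13). GCLM, of glutathione synthesis, stood at +0.14 and the thioredoxin reductase TXNRD1 at +0.03, each with 1 direction over its probe sets and neither with 1 direction over the pairs. The aldo-keto reductases AKR1C1 and AKR1C2 stood at -0.28 and -0.31, lower in all 3 pairs, although their transcripts are near copies and 1 of the 5 probe sets of AKR1C1 stood at +0.17. Glutathione peroxidase 3, GPX3, measured 9.06, 8.96 and 8.81 and then 8.80, 8.67 and 8.56 (-0.27), with groups apart and both probe sets below 0, and the microsomal transferase MGST1 stood at -0.21 with all 5 below.

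Genes that handle a phenolic acid lay on both sides of Control. Of 20 measured genes of catechol methylation, sulfation and glucuronidation 2 had a block p under 0.05 above Control and 3 below, of 16 genes of uptake and efflux 1 and 2, and of 13 targets of the aryl hydrocarbon receptor 1 and 1, against 8.54% of all genes in either direction. CYP1A1, the best-known target of the aryl hydrocarbon receptor, was dim at 6.06, 5.95 and 5.73 in Control and 5.94, 6.28 and 6.27 in CA (+0.25), without 1 direction over the pairs. CYP1B1 stood at +0.14 and the receptor AHR itself at +0.19. The glucuronosyltransferase UGT1A6 measured 7.72, 7.72 and 7.68 and then 7.53, 7.36 and 7.60 (-0.21), a value shared with other transcripts of its locus. The sulfotransferase SULT1B1 stood at a dim +0.38 and SULT2B1 at -0.17. MAT2A, which makes the methyl donor S-adenosylmethionine, measured 11.32, 11.11 and 11.39 and then 11.52, 11.54 and 11.52 (+0.25), with its second probe set at -0.013. Among transporters the organic anion carrier SLC22A6 stood at a dim +0.36 on 1 of 2 probe sets, and the efflux pump ABCG2 at -0.14.

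The eicosanoid list of 22 genes had no direction, with 11 below 0 and 11 above and a median of -0.008. In it 3 members had a block p under 0.05 above Control and 2 below. PLA2G4A, the phospholipase that frees arachidonic acid, measured 9.20, 9.30 and 9.31 in Control and 8.82, 8.97 and 9.05 in CA (-0.32 ± 0.064 with the block, adjusted p 0.266, limma). The groups did not overlap and the pairs were alike. ALOX5, 5-lipoxygenase, was level at 9.64, 9.05 and 9.39 against 9.61, 9.04 and 9.32, and PTGS2, cyclooxygenase 2, moved apart in the pairs, by -0.88, +0.71 and -0.27. The dim TBXAS1 stood at -0.25, and the dim ALOX15 and PTGER4 at +0.27 and +0.30, the latter with its second probe set at -0.09. The 19 measured inflammatory genes that NF-kB targets had a median of -0.01, with 11 below 0 and 8 above. Their pair medians were -0.21, +0.23 and -0.11 for numbers 1, 2 and 3. CXCL10 and TNFAIP3 were the 2 members lower in all 3 pairs, against 13.9% of all genes. CXCL10, a chemokine, measured 8.14, 6.64 and 6.74 and then 6.84, 6.63 and 5.96 (-0.70 ± 0.36), and TNFAIP3, an inhibitor of NF-kB, 8.06, 6.97 and 7.01 and then 7.51, 6.74 and 6.82 (-0.32). The 23 measured genes of the interferon response had a median of +0.08 with 14 above 0, 1 with a block p under 0.05 above Control and 2 below, and the median ran from -0.14 to +0.29 without single arrays. IFIT1, at +0.29, was the one above, and GBP2 and IFI6, at -0.25 and -0.21, were the ones below. Of the 6 measured leukocyte markers 4 lay below 0 and 2 above. CD14 and LAPTM5 stood at -0.39 and -0.37 with a block p under 0.05, the latter with its second probe set at -0.11. Without probe sets that can match several transcripts 5 markers remained, 2 below 0 and 3 above, with a median of +0.01. PTPRC, the defining marker, was dim at 3.65 log2, and the part of such cells in these values was not tested.

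Cyclin D1 and the transcription factors STAT5B and ATF2 lay close to their untreated level on the probe sets used. CCND1, cyclin D1, measured 8.89, 8.82 and 9.08 in Control and 9.02, 8.90 and 9.00 in CA (+0.04 ± 0.14). STAT5B measured 7.23 on all 3 controls and 7.39, 7.12 and 7.31 in CA (+0.04 ± 0.080), while its probe set 1555088_x_at stood at +0.42. ATF2 stood at +0.07 ± 0.097 on its brightest probe set and at -0.44 ± 0.096 on 205446_s_at, where all CA arrays lay below all controls. Of the 5 probe sets of STAT5B 4 lay above 0 and the lowest stood at -0.009. The direction of ATF2 and CCND1 depended on the probe set, with 2 of 3 below 0 for ATF2 and 1 of 2 for CCND1. Among other regulators the dim PIM1 stood at -0.22, CISH at +0.25, the dim CDKN1C at -0.41 with all 5 probe sets below 0, and CDKN1B at 9.80, 9.86 and 9.74 against 9.999, 9.94 and 10.04 (+0.19). Cyclin E2, CCNE2, stood at +0.30 and cyclin A2, CCNA2, at +0.24, each with a second probe set below 0, and the proliferation marker MKI67 at -0.14.

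Several regulators of chromatin had groups that did not overlap. Of 26 members of the list of histone deacetylases and NuRD, 5 had all CA arrays below Control and 2 had all above, against 3.46% and 4.4% of all genes (7.86% in either direction). The list as a whole had no direction, with 14 below 0 and 12 above and a median of -0.01. In it 4 members had a block p under 0.05 below Control and 2 above. MTA2, a subunit of the NuRD deacetylase complex, measured 6.54, 6.42 and 6.36 in Control and 5.95, 6.15 and 6.13 in CA (-0.37 ± 0.097, adjusted p 0.996, limma) and was dim. HDAC8 measured 7.70, 7.59 and 7.80 and then 7.53, 7.26 and 7.39 (-0.30) with all 3 probe sets below 0, HDAC10 6.79, 6.92 and 6.77 and then 7.02, 7.19 and 7.07 (+0.27) with both above, and RBBP4 11.02, 11.01 and 10.96 and then 10.80, 10.77 and 10.93 (-0.16). ICC stood at -0.45, -0.28, +0.27 and -0.31 for these 4 genes against the same controls. The histone genes H2BC13 and H2BC11 stood at -0.31 each, both dim.

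Of the remaining lists single members are given. PRKACB, a catalytic subunit of protein kinase A, measured 7.65, 7.49 and 7.64 in Control and 7.27, 7.27 and 7.22 in CA (-0.34 ± 0.085), with groups apart, although 1 of its 3 probe sets stood at +0.14. The cyclase ADCY5 and the gluconeogenic PCK1, both dim, stood at +0.27 and -0.35. The membrane protease TMPRSS4 measured 8.49, 8.51 and 8.51 and then 8.06, 8.31 and 8.11 (-0.34 ± 0.080), with ICC at 8.49, 8.61 and 8.46, and the dim plasminogen activator PLAU stood at -0.30. Hexokinase 2, HK2, stood at -0.24, with another probe set at +0.08. Among genes of cell death the caspase inhibitor XIAP stood at +0.24, while its 7 probe sets ran from -0.27 to that value, and the death receptor TNFRSF10A at -0.23 with all 3 probe sets below 0. The 21 measured genes of cholesterol and fatty acid synthesis had a median of -0.08 with 16 below 0 and 7 lower in all 3 pairs, yet 0 had a p under 0.05 with or without the block. The 31 genes of G2 and mitosis had a median of +0.02 with 19 above 0, which was -0.06 without CA replicate 1.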

How the data were processed

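Levels were read from a deposited table of Affymetrix HG-U133 Plus 2.0 intensity values, which the authors, per the submitters' processing notes, summarised by RMA, with GeneSpring GX named in the design text. The software version was not given in the sources used here. Because the intensity is linear, each value was converted to log2. Of 54675 probe sets 62 were controls and left out, 41091 had 1 gene symbol in the platform annotation, 1801 had several and 11721 had none. The last 2 kinds were tested as probe sets and not as genes. A gene was read by the probe set with the highest mean over the 9 arrays, which made 19775 genes (10523 had several probe sets). In 32.4% of probe sets some of the 6 arrays held an identical value, and no value was missing.

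The 3 groups of 9 arrays were fitted together in limma 3.58.1 (R 4.3.3), and p-values were adjusted by Benjamini and Hochberg over all genes or probe sets, with an adjusted p under 0.05 as the threshold. The smallest p of an exact permutation test of 3 against 3 arrays is 0.1, and that of an exact sign-flip test of 3 pairs is 0.25, so neither was used. Pairing was checked from the deviations from the group means, since the labels number the replicates 1 to 3 without saying what a number marks. The deviations of same-numbered arrays correlated between 0.327 and 0.518 in all 9 pairs of arrays, and those of different numbers between -0.436 and 0.0839, so the numbers were taken to pair the arrays and the model with the number as a block is given beside the results. Within a group deviations add up to 0, so part of this contrast arises by construction.

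Named genes are those called with or without the block, the 12 highest and 12 lowest at or above the median level with groups apart and 3 pairs in 1 direction (uncharacterised loci were passed over), the 6 smallest p each way with the block, and, for each of 41 lists, its core genes and 4 others of smallest p. SIAE and PACRGL came in through the 5 and 5 probe sets of smallest block p. The comparison, its lists and its rules were chosen with earlier results of these data known. Promoters came from RefSeq, GRCh38.p14. The scripts were tested on simulated data. Figures used matplotlib 3.10.9 (Python 3.11.15). Alternatives were the block, leaving out each array, quantile normalization again, centring, no dim features, only CA and Control arrays, array weights, an intensity trend with a robust prior, averaged probe sets per gene, and dropping the _x_at and _s_at kinds.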

Additional observations from a re-analysis of the deposited data

Results flagged for a closer look

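S100A2 was lower in CA than in ICC, and the test of that difference passed with the replicate block. CA minus ICC was -0.65 ± 0.068 (SE, 1.57-fold, limma, adjusted p 0.0388 over all genes), lower in 3 of 3 same-numbered pairs, and without the block the SE was 0.11 and the adjusted p 1.00. The doses differ, at 1.68 µg/mL of caffeic acid and 7 µg/mL of coffee. Over probe sets taken singly the adjusted p with the block was 0.133.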

How the results depend on the processing

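Limma called 0 genes without the block under every alternative run. With the replicate block it called 3, with the block and centred arrays 5, with the block and without dim genes 1 (S100A2, adjusted p 0.0282), with the block and quantile normalization again 0, with the block and only CA and Control arrays 0, and with the block and 1 array left out 0 to 1 (HINT3, without Control replicate 3). Over probe sets taken singly every alternative called 0. Between CA and ICC the block called 1 gene in place of 0. For the probe set 235008_at it took ICC minus Control from a limma adjusted p of 0.441 to 0.0116. The paired analysis changed no other call of CA minus Control.

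At an unadjusted p under 0.05, 883 genes became 1688 with the replicate block, 1840 with it and quantile normalization and 1694 with it and centring. With it and only CA and Control arrays there were 1587. Without dim genes and without the block there were 341, out of a smaller set of 9888 genes tested. Without single arrays there were 667 to 1742, with and without the block. For probe sets 2554 became 4487 with the block, 4709 with it and quantile normalization, 4509 with it and centring, 4406 with it and only CA and Control arrays, and 1111 without dim probe sets. Without single arrays there were 2113 to 4671, with and without the block.

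Of 3915 alternative values of 129 named genes 35 changed sign, in 17 genes. Without single arrays, with or without the block, NQO1 ran from -0.019 to +0.22, GCLM from -0.086 to +0.39, TXNRD1 from -0.056 to +0.14, CYP1B1 from -0.021 to +0.31, ALOX5 from -0.19 to +0.10, PTGS2 from -0.62 to +0.28, TNFAIP3 from -0.56 to +0.036, CCND1 from -0.044 to +0.12, STAT5B from -0.029 to +0.12, ATF2 from -0.032 to +0.12 and PACRGL from -0.14 to +0.014. Array weights turned ALOX5 to +0.028. Averaging the probe sets of each gene gave SIAE +0.23, PACRGL +0.19, HSPA5 -0.026, ATF2 -0.16 and CCND1 -0.015. With the _x_at and _s_at probe sets dropped PACRGL stood at +0.48, SKIC3 at -0.039, MAD2L1 at -0.049, MUC5AC at +0.084 and PTGER4 at -0.090. These 2 alternatives read other probe sets, which moves the value by construction, and for the others the cause was not tested. Of 450 alternative list medians 63 moved by more than the spread between replicates. Signal over background limits what dim genes can show, and 3 arrays in each group limit the rest.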
